A study of Mus musculus with 2 samples.

Results

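The levels of 10 genes of the YAP, TEAD and Vgll system were examined in muscle stem cells (MuSCs) and in the other cells sorted with them from mouse plantaris muscle, after sham surgery or after mechanical overload (MOV). The genes were chosen by name, with earlier results of these data known. They were the coactivators Yap1 and Wwtr1, the DNA-binding factors Tead1 and Tead4, and the TEAD cofactors Vgll2, Vgll3 and Vgll4. The response genes Ccn1, Ccn2 and Ankrd1 completed the list. All 10 were among the 32285 genes of both matrices. Both libraries came from plantaris muscles of Pax7rtTA; TRE-H2B-GFP mice 26 weeks old that drank doxycycline at 2.0 mg/mL for 2 weeks, so the label and the drug were shared by the control. In these animals the Pax7 gene directs the doxycycline-dependent activator, which switches on a nuclear histone-GFP, and a cell that starts to express Pax7 during treatment is labelled as well. The MOV library was taken 5 days after synergist ablation, in which tendon and muscle acting alongside the plantaris are removed so that the plantaris carries the load. The sham library was taken after an operation that exposed the plantaris tendon and removed nothing. The labels speak of 1 mouse and the study's methods of several per group, so whether a library is 1 animal or a pool is not settled here. Cells were sorted on VCAM, CD31, CD45 and Sca1, and both libraries were taken at the same day after surgery. There was 1 library per condition, with no replicate, so no difference between conditions has a replicate check, and differences of surgery, animal, sort and library cannot be told apart.

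YAP (Yap1) and TAZ (Wwtr1) carry mechanical and cell-contact signals to the nucleus. When the Hippo kinases are inactive they enter the nucleus and bind TEAD factors, which hold the DNA, while phosphorylation keeps them in the cytoplasm, so the activity of this pathway is set largely at the protein level and is not read directly from the RNA of Yap1 or Wwtr1. Vestigial-like proteins bind TEADs at a surface that overlaps the YAP site: VGLL4 is known as a competitor of YAP, VGLL2 as a muscle cofactor, and VGLL3 as a regulator of myoblast growth. Ccn1 (Cyr61) and Ccn2 (Ctgf) encode secreted matricellular proteins and Ankrd1 a stretch-responsive titin-binding ankyrin repeat protein, and all of these are widely used as readouts of YAP and TEAD, although serum response factor, TGF-beta and immediate-early factors also act on them.

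The upstream windows of the response genes Ccn1 and Ankrd1 are shown for the letters that TEAD factors bind, with a window without them for contrast. The core letters GGAATG, which read CATTCC on the other strand, were searched on both strands in the 250 bases before each RefSeq start on GRCm38.p6, and capitals mark each match. Windows were present for 7 of the 10 genes, and 6 of those held the letters: Yap1, Wwtr1, Vgll3, Vgll4, Ccn1 and Ankrd1. Vgll2 held none. Ccn2, Tead1 and Tead4 had no window here and were not searched. Over all 32851 windows of the same length 12.6% held the letters, and over genes 14.4%. The AP-1 letters TGACTCA, searched on both strands, were found in none of the windows of the 10 genes and in 4.46% of all windows. The Ccn1 window was chr3:145649986-145650235 on the minus strand, with its match starting 103 bases before the start. The Ankrd1 window was chr19:36119845-36120094 on the minus strand, with matches 210 and 123 bases before the start, and it lies inside the Ankrd1 gene as GENCODE gives it, whose start is further upstream. The Vgll2 window was chr10:52022252-52022501 on the plus strand.
Ccn1: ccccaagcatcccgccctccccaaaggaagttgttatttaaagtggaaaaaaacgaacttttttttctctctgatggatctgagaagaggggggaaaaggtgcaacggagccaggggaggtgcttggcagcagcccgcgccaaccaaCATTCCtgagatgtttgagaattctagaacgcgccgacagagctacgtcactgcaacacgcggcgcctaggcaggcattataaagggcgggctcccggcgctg
Ankrd1: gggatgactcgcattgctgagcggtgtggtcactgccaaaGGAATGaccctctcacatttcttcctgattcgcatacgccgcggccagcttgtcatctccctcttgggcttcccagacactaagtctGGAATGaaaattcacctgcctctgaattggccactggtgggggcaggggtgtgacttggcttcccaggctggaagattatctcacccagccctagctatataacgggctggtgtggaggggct
Vgll2: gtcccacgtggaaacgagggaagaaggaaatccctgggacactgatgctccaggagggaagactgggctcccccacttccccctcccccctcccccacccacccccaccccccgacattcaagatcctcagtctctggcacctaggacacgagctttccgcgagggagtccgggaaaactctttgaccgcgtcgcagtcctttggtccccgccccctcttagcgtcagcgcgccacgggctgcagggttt
A match is a description of these letters and was not tested as a binding site.

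On GRCm38 the response genes were compact: Ccn1 (ENSMUSG00000028195) spans chr3:145646976-145649981 on the minus strand, Ccn2 (ENSMUSG00000019997) chr10:24595442-24598683 on the plus strand, and Ankrd1 (ENSMUSG00000024803) chr19:36111961-36120099 on the minus strand. The coactivators Yap1 (ENSMUSG00000053110) and Wwtr1 (ENSMUSG00000027803) lie at chr9:7931999-8004596 and chr3:57455649-57575910, both on the minus strand. Tead1 (ENSMUSG00000055320) lies at chr7:112679318-112906807 on the plus strand and Tead4 (ENSMUSG00000030353) at chr6:128224288-128300823 on the minus strand. Vgll2 (ENSMUSG00000049641) lies at chr10:52022502-52028471 and Vgll3 (ENSMUSG00000091243) at chr16:65815257-65866368, both on the plus strand, and Vgll4 (ENSMUSG00000030315) at chr6:114860628-114969994 on the minus strand. None of the 10 overlapped another counted gene on its own strand. Yap1, Tead1 and Ccn2 each overlapped 1 counted gene on the other strand.

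The sham library held 1100 cell barcodes with 7302661 UMIs (unique transcript molecules) and the MOV library 3854 barcodes with 88498487 UMIs, and the median per barcode was 4116.5 and 16836 UMIs. Cells were grouped by the UMIs of marker genes. After filters the sham library held 118 MuSCs, 442 fibre droplets (droplets dominated by RNA of mature myofibres), 22 Pdgfra cells (the fibro-adipogenic stroma) and 15 tenocytes. The MOV library held 1504 MuSCs, 139 myocytes, 20 fibre droplets, 361 Pdgfra cells and 122 tenocytes. Only 1 sham cell was a myocyte, and it enters no comparison. The labels call every cell a muscle stem cell, but Pax7 stood at 140 CPM (UMI counts of a gene scaled to the summed UMIs of the group) in sham and 80.3 CPM in MOV MuSCs and at 2.28 CPM in sham fibre droplets and 0 in sham tenocytes, so the largest sham group was not of MuSCs; Pax7 was among the genes that set the MuSC group. Tnmd, a tenocyte gene, was at 1562 and 1205 CPM in sham and MOV tenocytes and at 0 and 1.56 CPM in the MuSCs. It was among the genes that set the tenocyte group. The other genes of that list fell further from sham to MOV tenocytes. Fmod went from 12869 to 3196 CPM, Scx from 962 to 539, Kera from 660 to 377 and Mkx from 121 to 47.2. Lrrc15, from the Pdgfra cell list, was at 0 in sham and 142 CPM in MOV tenocytes. The tenocytes of the libraries thus differed in their markers. Depth and mitochondrial share moved with condition: sham and MOV MuSCs had medians of 7915 and 22162 UMIs and of 5.63% and 3.14% mitochondrial UMIs, and their part in the results was not tested. The libraries shared 44 barcodes. In 39 of them the sham copy was deep (12279 to 103126 UMIs) and the MOV copy shallow (501 to 2057 UMIs), and in the other 5 the MOV copy was the deep one. Leaving out every shared barcode took sham MuSCs from 118 to 110. Leaving out only the shallower copies took MOV fibre droplets from 20 to 18 and changed no count of genes past 2-fold.

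Values below are CPM with exact Poisson 95% intervals, and log2 ratios carry exact 95% intervals. These intervals cover counting error alone and say nothing of the variation between cells or between animals. Leaving out a single cell moved some of the values below outside their interval. The 3' UMI counts do not depend on gene length as read counts do, but capture differs by gene, so levels are compared between groups and not between genes. A gene is counted as past 2-fold when its log2 ratio exceeds 1 in size and the groups together hold at least 20 UMIs of it.

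Yap1 was lower in MOV than in sham cells of the MuSC and Pdgfra groups, while Wwtr1 changed by less than 2-fold in both. In MuSCs Yap1 was at 34.3 CPM (25 to 45.9, 45 UMIs) in sham and at 18.5 CPM (17.2 to 19.8) in MOV, and these intervals do not overlap. The log2 ratio of MOV to sham was -0.89 (-1.32 to -0.42), which stayed within 2-fold. It reached -1.14 without the barcodes found in both libraries and -1.08 under median-of-ratios scaling. In Pdgfra cells Yap1 was at 57.9 CPM (15 UMIs in 11 of 22 cells) in sham and at 19.8 CPM in MOV, a log2 ratio of -1.55 (-2.30 to -0.69). Sham tenocytes held 7 Yap1 UMIs, 47.1 CPM, against 24.7 CPM in MOV, and the interval of that ratio includes 0 (-0.93, -2.05 to 0.44). MOV myocytes were at 15.5 CPM and sham fibre droplets at 12.1 CPM. Ordered by level, the 3 highest groups were sham Pdgfra cells, sham tenocytes and sham MuSCs, and every neighbouring pair of the 9 groups overlapped in its intervals.

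Wwtr1, which encodes TAZ, was highest in tenocytes and MuSCs among the 9 groups compared here and low in fibre droplets. The 19 MOV endothelial cells, outside these groups, were at 437 CPM (73 UMIs). It stood at 289 CPM (209 to 390) in sham and 223 CPM in MOV tenocytes, at 227 CPM (202 to 254) in sham and 180 CPM (176 to 184) in MOV MuSCs, and at 116 and 147 CPM in sham and MOV Pdgfra cells. Sham tenocytes, sham MuSCs and MOV tenocytes overlapped in their intervals. The MOV to sham log2 ratio was -0.33 (-0.50 to -0.16) in MuSCs and 0.34 (-0.17 to 0.91) in Pdgfra cells. Sham fibre droplets held 13.4 CPM, a log2 ratio of -4.08 (-4.59 to -3.61) to sham MuSCs. In MOV fibre droplets the 7 Wwtr1 UMIs came from 6 of 20 droplets and gave 49.7 CPM.

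**Figure D1:**
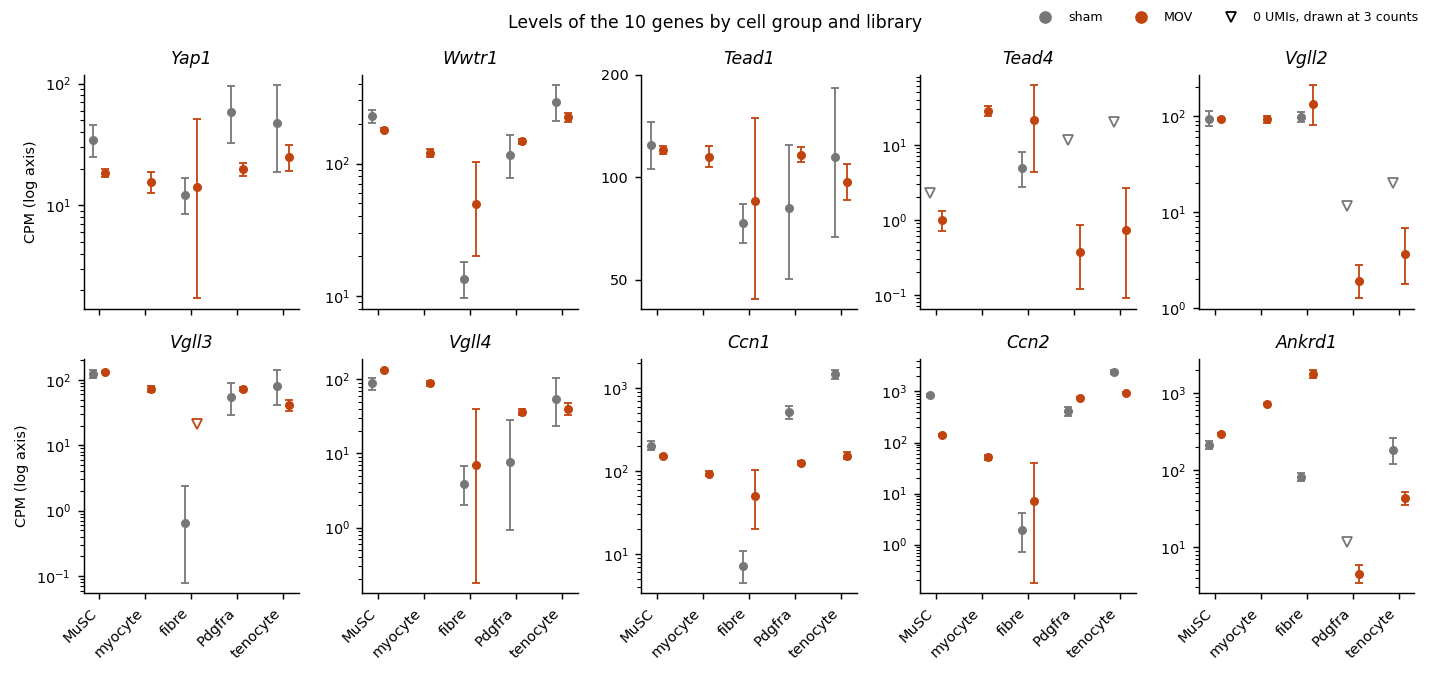
Levels of the 10 genes by cell group in CPM on log axes, with sham in grey and MOV in orange; points are UMIs summed over the cells of a group, bars are exact Poisson 95% intervals, and open triangles are groups with 0 UMIs drawn at the level of 3 counts. Ccn2 stands at 842 CPM in sham and 141 CPM in MOV MuSCs, and Ankrd1 stands at 81.6 CPM in sham and 1795 CPM in MOV fibre droplets.

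Tead1 stood at 73.1 to 124 CPM in the 9 groups compared here, and at 13.0 CPM (9 UMIs) in the 61 MOV immune cells. It was at 124 CPM in sham and 120 CPM in MOV MuSCs (log2 ratio -0.05, -0.27 to 0.19), 115 CPM in MOV myocytes, 116 CPM in MOV Pdgfra cells, 96.7 CPM in MOV tenocytes and 73.1 CPM in sham fibre droplets. From the highest group to the lowest, each neighbouring pair of the 9 groups overlapped. The lowest of them, sham fibre droplets, did not overlap sham MuSCs (63.9 to 83.3 against 106 to 145 CPM). Median-of-ratios scaling raises the log2 ratio of these 2 groups by 0.90, so this order depends on the scaling.

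Tead4, a TEAD gene known as a target of the myogenic factors, was found in myocytes. Sham MuSCs held 0 UMIs in 118 cells, which allows up to 2.29 CPM at 3 counts, and MOV MuSCs held 42 UMIs in 37 of 1504 cells, 0.978 CPM. Both lie under that limit, so no fold is given between them. MOV myocytes held 187 UMIs in 72 of 139 cells, 28.4 CPM (24.4 to 32.7), which is 29.0-fold above MOV MuSCs (log2 ratio 4.86, 4.37 to 5.38). The level was 23.6 CPM (19.6 to 28.2) in early myocytes, with little RNA of the developmental myosins Myh3 and Myh8, and 46.0 CPM (35.4 to 58.7) in late ones, and those intervals do not overlap. Fibre droplets held 4.90 CPM in sham (15 UMIs in 15 droplets) and 21.3 CPM in MOV (3 UMIs), with overlapping intervals. MOV Pdgfra cells and tenocytes were at 0.370 and 0.738 CPM, and their sham counterparts held none.

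Vgll2 was present in MuSCs, myocytes and fibre droplets at like CPM and nearly absent from stroma. It was at 94.5 and 93.9 CPM in sham and MOV MuSCs, 93.1 CPM in MOV myocytes, 98.3 CPM in sham and 135 CPM in MOV fibre droplets, and all of these overlapped. MOV Pdgfra cells were at 1.92 CPM, a log2 ratio of -5.61 (-6.22 to -5.06) to MOV MuSCs, MOV tenocytes at 3.69 CPM (10 UMIs, 6 of them in 1 cell), and sham Pdgfra cells and sham tenocytes at 0. Within sham fibre droplets Vgll2 followed myosin type. It was at 40.4 CPM (31.5 to 51.0) in the 262 droplets where Myh4 (the IIb myosin) led, 127 CPM (104 to 153) in the 128 led by Myh1 (IIx) and 263 CPM (218 to 314) in the 52 led by Myh2 (IIa), and no pair of these intervals overlapped. Droplets with a Vgll2 UMI made up 19.5%, 45.3% and 75% of the 3 types, whose median depths were 4286.5, 4588 and 5481 UMIs. Tead1 was at 60.5, 92.1 and 84.6 CPM in the same types, with overlapping intervals.

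Vgll3 was present in MuSCs, myocytes and stroma and was all but missing from fibre droplets. It was at 123 CPM (105 to 144) in sham and 134 CPM (131 to 138) in MOV MuSCs, a log2 ratio of 0.12 (-0.10 to 0.36). MOV myocytes were at 72.8 CPM, a log2 ratio of -0.88 (-1.02 to -0.75) to MOV MuSCs. MOV Pdgfra cells were at 72.5 CPM and MOV tenocytes at 41.0 CPM. In 442 sham fibre droplets there were 2 UMIs, 0.653 CPM, and in 20 MOV droplets there were none.

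Vgll4, the YAP competitor, was higher in MOV than in sham MuSCs without passing 2-fold. It was at 88.4 CPM (73.0 to 106) in sham and 132 CPM (129 to 136) in MOV, a log2 ratio of 0.58 (0.32 to 0.86), and the intervals do not overlap. MOV myocytes were at 89.2 CPM, MOV tenocytes at 40.2 CPM, MOV Pdgfra cells at 36.2 CPM and sham fibre droplets at 3.92 CPM. Among sham Pdgfra cells a single cell held both of the 2 UMIs (7.72 CPM), so the log2 ratio of 2.23 to MOV has the wide interval 0.37 to 5.28.

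**Figure D2:**
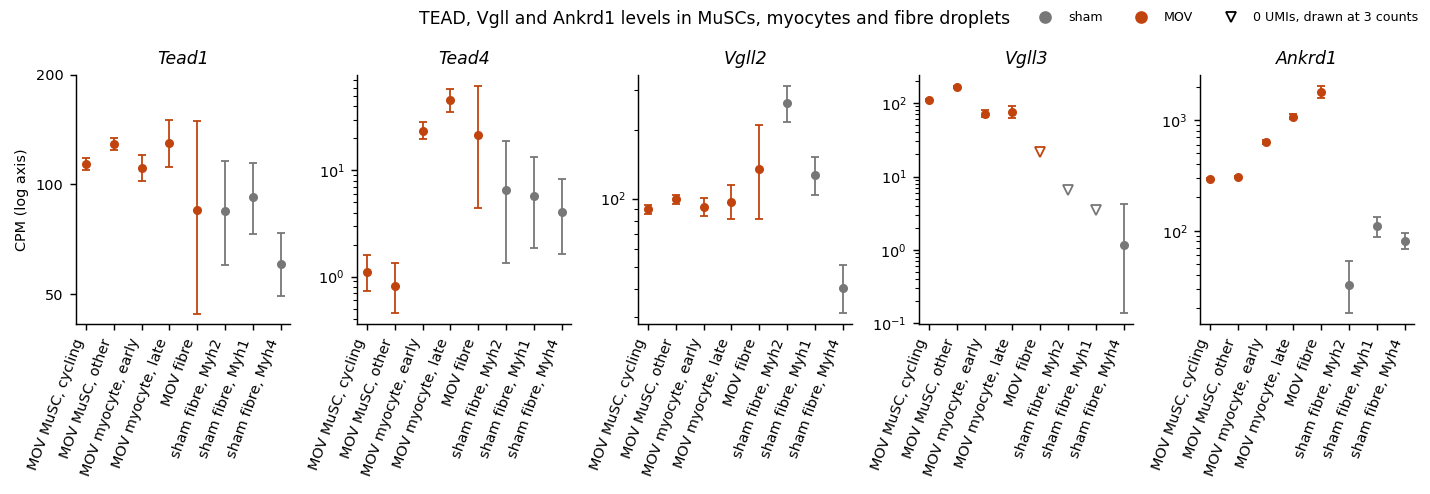
Tead1, Tead4, Vgll2, Vgll3 and Ankrd1 along the myogenic groups, in CPM on log axes, with MOV in orange, sham in grey, exact Poisson 95% intervals as bars, and open triangles for 0 UMIs drawn at 3 counts. Tead4 is near 1 CPM in MOV MuSCs and 46.0 CPM in late myocytes, and Vgll2 runs from 40.4 CPM in Myh4 droplets to 263 CPM in Myh2 droplets.

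Ccn2 was the gene of the 10 that differed most between sham and MOV MuSCs, and it was lower in MOV. Sham MuSCs held 1105 UMIs in 64 of 118 cells, 842 CPM (793 to 893), and MOV MuSCs 6040 UMIs in 852 of 1504 cells, 141 CPM (137 to 144). The level was 5.99-fold lower in MOV, a log2 ratio of -2.58 (-2.67 to -2.49), and no single cell carried it: without the cell holding most Ccn2 UMIs sham MuSCs were at 769 CPM. Ccn2 was the only 1 of the 10 genes past 2-fold in this comparison. Over all 13042 genes compared, 10.2% were past 2-fold lower, 15.8% higher and 26% past 2-fold either way, so the count for the 10 genes is not above the background. The median log2 ratio of all genes was 0.19 in this comparison, and scaling that centres it gave -2.77 for Ccn2 by median of ratios and -2.75 by TMM. Without the barcodes found in both libraries it was -2.92. Per cell the sham values were skewed, with a median of 122 CPM and a 90th percentile of 3119 CPM against 30.7 and 617 CPM in MOV.

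Markers of other cells were read beside this result, and the part of RNA carried over from other cells was not tested. Of the 9 groups, tenocytes had the highest Ccn2 level (2423 CPM in sham). In sham MuSCs the 5 tenocyte markers summed to 3.81 CPM with 2 of them at 0, against 16174 CPM in sham tenocytes and 38.9 CPM in MOV MuSCs. Most of the sum in MuSCs was Scx, at 2.29 CPM in sham and 32.4 CPM in MOV. Fmod was at 0.762 and 3.82 CPM. Sham fibre droplets, taken from the same suspension, held 6 Ccn2 UMIs in 442 droplets, 1.96 CPM. Summed fibre markers stood at 302 CPM in sham and 116 CPM in MOV MuSCs.

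Ccn1 and Ankrd1 moved less in MuSCs, and in opposite directions. Ccn1 was at 203 CPM (180 to 229) in sham and 153 CPM (150 to 157) in MOV, a log2 ratio of -0.41 (-0.58 to -0.23). Ankrd1 was at 214 CPM (190 to 241) in sham and 299 CPM (294 to 304) in MOV, a log2 ratio of 0.48 (0.31 to 0.66). Neither pair of intervals overlaps, and neither ratio passed 2-fold.

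**Figure D3:**
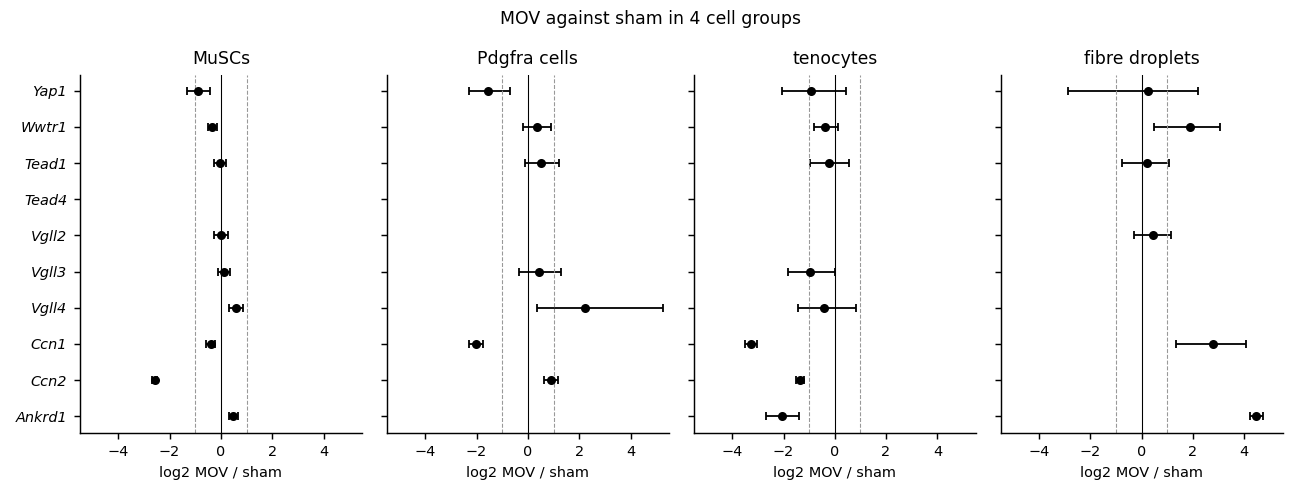
The log2 ratio of MOV to sham for the 10 genes in MuSCs, Pdgfra cells, tenocytes and fibre droplets, with exact 95% intervals for counting error; dashed lines mark 2-fold, and genes with 0 UMIs in a group or under 20 UMIs in both are not drawn. Ccn2 lies at -2.58 in MuSCs, 0.89 in Pdgfra cells and -1.35 in tenocytes, while Ankrd1 lies at 4.46 in fibre droplets and -2.07 in tenocytes.

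The response genes also differed among MuSC states. Ranges below are the highest over the lowest state and were not computed over all genes, so they have no background beside them. States were read from lists of cycling, immediate-early, interferon, matrix and quiescence genes that hold none of the 10. In MOV MuSCs Ccn2 ran from 87.7 CPM (84.0 to 91.5) in the 615 cycling cells to 460 CPM (429 to 493) in the 152 cells with quiescence markers, a 5.25-fold range. Ankrd1 ran the other way at that end, from 96.1 CPM (82.3 to 112) in cells with quiescence markers to 488 CPM (449 to 530) in the 62 immediate-early cells, a 5.08-fold range. Ccn1 ran 3.25-fold, from 130 CPM in cycling to 421 CPM in immediate-early cells. Vgll4 ran 2.37-fold, from 94.3 CPM in cycling cells to 223 CPM in the 126 matrix cells. Yap1, Wwtr1, Tead1, Vgll2 and Vgll3 ranged by less than 2-fold over the same states, and Tead4 had too few UMIs to place. Yap1 passed 2-fold with looser states (2.01-fold) and with stricter ones (2.08-fold). Cycling cells were lower than other MOV MuSCs in Ccn2 by a log2 ratio of -1.27 (-1.35 to -1.19), the only 1 of the 10 genes past 2-fold, where 5.83% of all genes were past 2-fold lower, 6.84% higher and 12.7% either way. Vgll4 was next at -0.96 (-1.04 to -0.88).

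The mix of states differed between the libraries, so the MuSCs with quiescence markers were also compared directly, 67 in sham and 152 in MOV. In them Ccn2 was at 1173 CPM (1084 to 1268) in sham and 460 CPM in MOV, a log2 ratio of -1.35 (-1.50 to -1.20). Ankrd1 was at 245 CPM (205 to 290) in sham and 96.1 CPM in MOV, -1.35 (-1.68 to -1.01), which is the opposite direction to that over all MuSCs. Vgll4 was at 90.8 CPM in sham and 197 CPM in MOV, 1.12 (0.68 to 1.58). Ccn1 was at 163 and 144 CPM, with overlapping intervals. These made 1 gene higher and 2 lower past 2-fold of 9 compared, against 15.8% of all genes higher and 6.24% lower (22% either way). With a mitochondrial limit of 5%, which left 40 of the 118 sham MuSCs, Tead1 (1.12) and Ccn1 (-1.27) also passed 2-fold here.

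**Figure D4:**
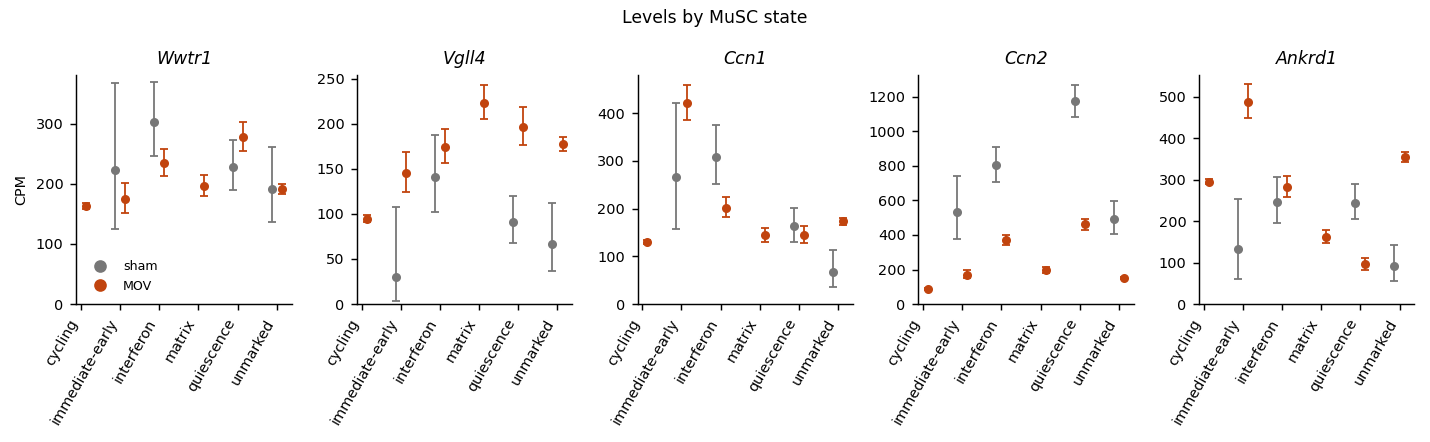
Levels of Wwtr1, Vgll4, Ccn1, Ccn2 and Ankrd1 by MuSC state in CPM on linear axes from 0, sham in grey and MOV in orange, with exact Poisson 95% intervals; states with under 10 cells in a library are left out. Sham cells lie above MOV cells for Ccn2 in each state shown for both, with 1173 against 460 CPM in cells with quiescence markers.

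In myocytes of the MOV library Tead4 and Ankrd1 were higher and Ccn2 lower than in MuSCs of the same library. Ankrd1 was at 724 CPM (704 to 745) in myocytes and 299 CPM in MuSCs (log2 ratio 1.28, 1.23 to 1.32), with 633 CPM in early and 1067 CPM in late myocytes. Ccn2 was at 51.7 CPM (46.4 to 57.5) against 141 CPM, -1.44 (-1.60 to -1.29). Past 2-fold there were thus 2 genes higher and 1 lower of the 10, where 8.05% of all genes were higher and 15.6% lower (23.6% either way). Wwtr1 (-0.59), Vgll4 (-0.57) and Ccn1 (-0.71) were lower in myocytes within 2-fold. Tenocyte markers summed to 192 CPM in myocytes, of which Scx gave 186 CPM and Tnmd 2.12 CPM.

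In the stroma the direction of Ccn2 depended on the cell group. In Pdgfra cells it was at 405 CPM (332 to 491) in sham and 754 CPM (739 to 768) in MOV, a log2 ratio of 0.89 (0.62 to 1.19), and 1 of 22 sham cells held 43 of the 105 UMIs, without which the sham level was 252 CPM. In tenocytes it was at 2423 CPM (2179 to 2687) in sham and 950 CPM (913 to 987) in MOV, -1.35 (-1.51 to -1.19). That ratio fell within 2-fold, to -0.84, when the marker thresholds were doubled. Ccn1 was lower in MOV in both. In Pdgfra cells it was at 513 CPM (430 to 609) in sham and 126 CPM (120 to 132) in MOV, -2.03 (-2.28 to -1.76), and in tenocytes at 1474 CPM (1285 to 1683) and 153 CPM (138 to 168), -3.27 (-3.51 to -3.03). Among the 15 sham tenocytes 1 cell held 69 of the 219 Ccn1 UMIs, and the level without it was 1205 CPM. Ankrd1 in tenocytes was at 182 CPM (27 UMIs in 5 of 15 cells) in sham and 43.2 CPM in MOV, -2.07 (-2.69 to -1.41). In Pdgfra cells it was at 0 in sham and 4.51 CPM in MOV, under the sham limit of 11.6 CPM.

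Past 2-fold in Pdgfra cells there were 1 gene higher (Vgll4) and 2 lower (Yap1, Ccn1) of 9 compared, where 11.9% of all genes were higher and 17.4% lower (29.3% either way). In tenocytes there were 3 lower (Ccn1, Ccn2, Ankrd1) and none higher of 8 compared, where 14.5% were higher and 16.8% lower, and 31.3% either way. With a mitochondrial limit of 5%, which left 10 of the 15 sham tenocytes, Yap1 (-1.24) and Vgll3 (-1.19) also passed. The sort gated against SCA1, yet Ly6a, which encodes it, was at 1873 and 1870 CPM in sham and MOV Pdgfra cells. Ly6a was 1 of the 6 genes that set this group, so its level there follows in part from the choice of cells. The other genes of that list differed between sham and MOV Pdgfra cells. Clec3b was at 1622 and 205 CPM, Pdgfra at 502 and 146, Pi16 at 359 and 193 and Pcolce2 at 266 and 58.7. Lrrc15 went the other way, at 19.3 and 66.1 CPM. The markers of Pdgfra cells and tenocytes thus differed between the libraries, and the part of this in the ratios was not tested.

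Within the MOV library, Pdgfra cells were higher than MuSCs in Ccn2 (2.42, 2.38 to 2.47) and lower in Ankrd1 (-6.05, -6.44 to -5.69), Vgll2, Vgll4 (-1.87, -2.01 to -1.74) and Tead4 (-1.40, from 5 UMIs). That is 1 gene higher and 4 lower of the 10, where 18.3% of all genes were higher and 15% lower (33.3% either way). Tenocytes differed from Pdgfra cells past 2-fold in Ankrd1 alone, 43.2 against 4.51 CPM (log2 ratio 3.26, 2.80 to 3.73), where 4.54% of all genes were higher and 13.2% lower (17.7% either way). Vgll2 (0.94) and Vgll3 (-0.82) were just inside 2-fold there, and each passed it under some other settings.

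Ankrd1 was the member that differed most between the fibre droplets of the libraries. In sham it gave 250 UMIs in 34 of 442 droplets, 81.6 CPM (71.8 to 92.4), and in MOV 253 UMIs in 14 of 20 droplets, 1795 CPM (1581 to 2031), a log2 ratio of 4.46 (4.20 to 4.72). Single droplets weighed heavily: the highest held 79 of the sham and 132 of the MOV UMIs, and the levels without them were 56.1 and 1120 CPM, a log2 ratio of 4.32. By leading myosin the MOV droplets were at 1952 CPM (5 droplets, Myh4), 1602 CPM (10, Myh1) and 1887 CPM (5, Myh2, where 132 of 134 UMIs were in 1 droplet). Ankrd2, a related titin-binding gene, was at 177 CPM in sham and 2115 CPM in MOV droplets (3.58, 3.37 to 3.79), and Ankrd23, the other gene of that family, at 1800 and 1150 CPM. Wwtr1 (1.89) and Ccn1 (2.79) were also past 2-fold higher, each on 7 MOV UMIs, of which 5 for Ccn1 were in 1 droplet. These made 3 genes higher of 6 compared, where 13.7% of all genes were higher, 11.5% lower and 25.1% past 2-fold either way. The MOV droplets were shallower, and their marker sums differed from those of sham droplets. Fibre markers summed to 21232 CPM in MOV and 41262 CPM in sham. By leading myosin (Myh4, Myh1, Myh2) these sums were 31384.5, 24753 and 15899 CPM in MOV. In sham they were 50811, 34761.5 and 17584 CPM. Myocyte markers summed to 92.2 CPM in MOV and 2.94 CPM in sham, and MuSC markers to 35.5 and 7.83 CPM. Tenocyte markers summed to 163 and 21.9 CPM, of which Scx gave 142 and 20.2 CPM. The part of these differences in the result was not tested. MOV myocytes, at 724 CPM, were below MOV fibre droplets in Ankrd1.

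Compared with sham MuSCs, sham fibre droplets were lower in 7 of 9 genes compared past 2-fold, where 49.6% of all genes were lower, 23.9% higher (73.5% either way) and the median of all genes was -0.89. Ccn2 (-8.75, -10.20 to -7.62), Vgll3 (-7.56), Ccn1 (-4.82), Vgll4 (-4.50) and Wwtr1 (-4.08) lay furthest below. Yap1 (-1.50) and Ankrd1 (-1.39) came within 2-fold when that median was taken out, at -0.60 and -0.49 by median of ratios and -0.68 and -0.56 by TMM. Tead1 (-0.76) and Vgll2 (0.06) were within 2-fold under CPM. TMM and median-of-ratios scaling raise every log2 ratio of this comparison by 0.83 and 0.90. That Tead1 lay below sham MuSCs and Vgll2 level with them therefore holds under CPM only.

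Dissociation of tissue is known to induce immediate-early genes, and Ccn1 is often induced with them, so the levels of those genes were set beside the response genes. The summed immediate-early list (Fos, Egr1 and 6 others) was at 2904 CPM in sham and 1919 CPM in MOV MuSCs, 13513 and 4613 CPM in Pdgfra cells, and 22635 and 5859 CPM in tenocytes. It was thus higher in sham in each of these groups, as Ccn1 was, and its part in the difference was not tested. In fibre droplets the list was at 826 CPM in sham and 1284 CPM in MOV, and Ccn1 was higher in MOV there. Cells were then ordered within each group by the share of that list and divided into 3 bins of like size. In MOV MuSCs Ccn1 was at 99.3, 163 and 231 CPM from the lowest to the highest bin, and in MOV tenocytes at 71.9, 90.9 and 448 CPM. Ccn2 went from 439 to 666 and 1167 CPM in MOV Pdgfra cells and from 663 to 1100 and 1318 CPM in MOV tenocytes. In sham MuSCs Ccn2 was at 949, 833 and 555 CPM, where the intervals of the lowest and middle bins overlap. With Fos and Egr1 left out of the list it was at 837, 1046 and 602 CPM, so Ccn2 was lowest in the highest bin both ways, and the order of the other bins changed. In the same cells Ankrd1 was at 174, 130 and 431 CPM and Ccn1 showed no order, at 199, 248 and 158 CPM. In the lowest bin, where the list was at 841 CPM in sham and 646 CPM in MOV, Ccn2 was at 949 CPM (879 to 1022) in sham and 80.5 CPM (76.5 to 84.7) in MOV MuSCs. Sham and MOV MuSCs were at 833 and 187 CPM of Ccn2 in the middle bin and at 555 and 184 CPM in the highest. The gap was thus widest in the lowest bin. Bins are ranks within a library and were not matched for the list between libraries. In sham and MOV the list was at 2342 and 1356 CPM in the middle bins and at 9366 and 4695 CPM in the highest. Depth ran with the bins: medians were 29294.5, 21774 and 18971 UMIs in MOV MuSCs and 12849.5, 8513 and 6366 UMIs in sham.

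**Figure D5:**
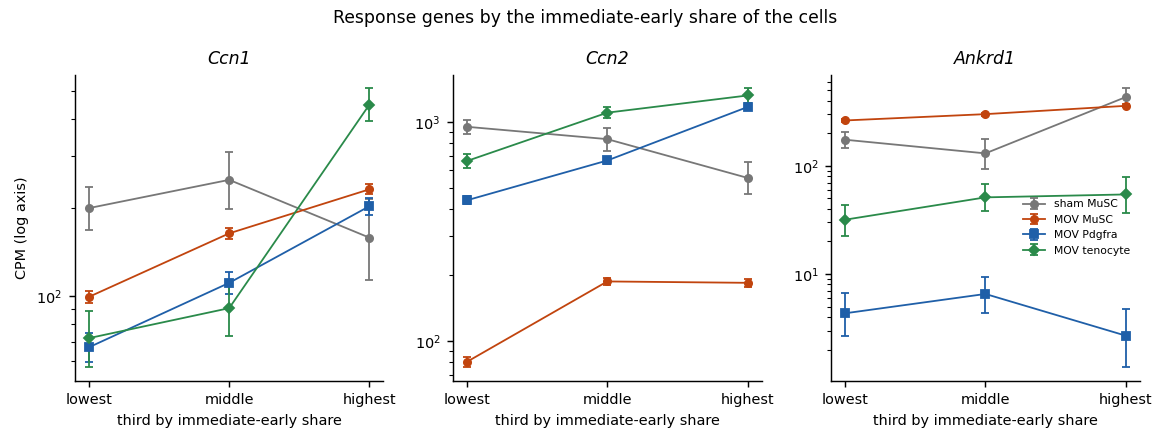
Ccn1, Ccn2 and Ankrd1 in 3 bins of cells ordered by the share of immediate-early UMIs, in CPM on log axes with exact Poisson 95% intervals, for sham MuSCs, MOV MuSCs, MOV Pdgfra cells and MOV tenocytes. Ccn1 in MOV MuSCs goes from 99.3 to 231 CPM, while Ccn2 in sham MuSCs goes from 949 to 555 CPM.

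The share of MuSCs with a UMI was compared after each cell was thinned to 2000 UMIs, with exact Clopper-Pearson 95% intervals, which left out 1 sham and 5 MOV MuSCs. Ccn2 was found in 38.5% (29.6 to 47.9) of sham and 20.4% (18.4 to 22.5) of MOV MuSCs, although the unthinned shares were 54.2% and 56.6%. Ankrd1 was found in 21.4% (14.3 to 29.9) and 33.0% (30.6 to 35.5), Vgll4 in 12.8% and 25.4%, and Yap1 in 10.3% and 4.07%. The intervals of these 4 genes did not overlap between the libraries, those of the other 6 did. At 4000 UMIs 3 stood apart (Yap1, Ccn2, Ankrd1) and at 1000 UMIs only Ccn2. Thinned shares were not computed over all genes, so these counts have no background beside them. Unthinned shares were 43.2% and 75.9% for Ankrd1, 45.8% and 86.2% for Vgll4, and 28.8% and 36.4% for Yap1. MOV immune cells, taken as a group that should largely lack Ccn2 and Ankrd1, gave 5.45% for Ccn2, 3.64% for Ankrd1, 3.64% for Vgll4 and 0 of 55 cells (upper bound 6.49%) for Yap1 at the same depth. Their unthinned median depth was 9857 UMIs, against 22162 in MOV MuSCs. The Yap1 share in MOV MuSCs lies under that bound, so it is not told apart from background by this measure.

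Lists of pathway neighbours put the 10 genes in context. In MOV against sham MuSCs none of 17 Hippo kinases and adaptors was past 2-fold higher and 2 were lower, where 15.8% of all genes were higher and 10.2% lower, so this count is near the background. Frmd6 lay furthest (285 to 121 CPM, -1.24, -1.39 to -1.09), and the list's median was -0.24 beside 0.19 for all genes. Of 17 compared genes from a list of YAP targets 2 were higher and 3 lower, beside the same background, with a median of -0.25. The extremes were Myof, a membrane repair gene (1.42, 1.00 to 1.88), and Rbms3, which encodes an RNA-binding protein (-1.75, -1.98 to -1.53). Of 8 serum response factor and MRTF targets 2 were higher and none lower (median 0.81), with the myosin light chain gene Myl9 furthest at 7.62 and 50.7 CPM (2.73, 1.85 to 3.8). The other CCN genes (3 compared) and the other TEAD and Vgll genes (2 compared) stayed within 2-fold. Of the other titin-binding ankyrin genes, Ankrd2 was at 0.762 CPM (1 UMI) in sham and 6.77 CPM in MOV and Ankrd23 at 21.3 and 5.70 CPM. Amotl2, Lats2 and Ptpn14 stand in both the Hippo and the YAP target list.

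In the stroma the serum response factor list stood higher in MOV, in contrast to Ccn1. In Pdgfra cells 5 of 8 were past 2-fold higher (median 1.34, all genes -0.10), with Tagln, a smooth muscle actin-binding gene, at 3.86 CPM in sham (1 UMI) and 591 CPM in MOV. In tenocytes 5 of 8 were higher (median 1.51, all genes -0.05), with Acta2, smooth muscle actin, at 195 and 1483 CPM (2.93, 2.40 to 3.51). The YAP target list was divided there. In Pdgfra cells 4 were higher and 6 lower of 18 compared (median -0.15), from Fjx1 (2.89, 0.40 to 8.19, from 1 sham UMI) to the coagulation gene F3 (-2.77, -3.10 to -2.43). In tenocytes 4 were higher and 7 lower of 17, from the matrix gene Ccdc80 (2.64, 1.91 to 3.48) to Amotl2, which encodes an angiomotin that binds YAP (-2.43, -2.89 to -1.95). The Hippo list gave 1 higher and 5 lower of 16 in Pdgfra cells and 1 higher and 3 lower of 16 in tenocytes. Beside these list counts, 11.9% of all genes were higher and 17.4% lower in Pdgfra cells, and 14.5% higher and 16.8% lower in tenocytes, so the Hippo count in tenocytes is near the background. Ccn4 was at 0 in sham and 137 CPM in MOV Pdgfra cells, at least 3.56 higher on the log2 scale against 3 counts, and Ccn3 was lower there (-1.70, -2.08 to -1.31). In tenocytes Ccn4 was higher (2.57, 1.33 to 4.20, from 5 sham UMIs). Fibre droplets held few genes of these lists: 7 Hippo genes were compared with 1 higher, Amot (2.12, 9 MOV UMIs), where 13.7% of all genes were higher, 4 YAP targets with none past 2-fold, and 4 serum response factor targets with Tagln higher (3.22, 6 MOV UMIs).

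Within the MOV library, Pdgfra cells were past 2-fold above MuSCs in 10 and below in 2 of 19 YAP targets, where 18.3% of all genes were above and 15% below, with a median of 1.06 beside -0.10 for all genes. Ccdc80 lay furthest above (5.09, 5.02 to 5.16) and Igfbp3 furthest below (-1.59, -1.81 to -1.38). Tead2, another TEAD gene, was lower in Pdgfra cells, 7.92 against 28.6 CPM (-1.85, -2.15 to -1.57). Myocytes held 5 YAP targets lower and none higher than MuSCs of 18 compared, where 15.6% of all genes were lower and 8.05% higher. Cycling MuSCs held none past 2-fold of 17 compared, where 12.7% of all genes were, with a median of -0.58 beside -0.07.

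Genes whose levels ran most like each of the 10 were taken over 19 groups of cells, among 8583 genes, by Pearson correlation of log2(CPM + 5). The groups come from 2 libraries and share depth, so these values are a description. Vgll3 ran with Nectin3 (0.97), Ttc3 (0.97) and Wwtr1 (0.97), and Wwtr1 with Senp6 (0.98), Ahi1 (0.97) and Nectin3 (0.97). Ccn2 ran with 1810055G02Rik (0.96), Fkbp7 (0.96) and Rbms3 (0.96). Tead4 ran with Casq2 (0.92), Inppl1 (0.92) and Filip1 (0.91), Vgll2 with Palmd (0.93), Rapsn (0.92) and Oxa1l (0.92), and Vgll4 with Cd200 (0.96), Dag1 (0.95) and Dhx36 (0.95). Ccn1 ran with Kirrel (0.93), Tcaf1 (0.92) and Terf2 (0.92). For Yap1 the most alike was Epn2 (0.90), for Ankrd1 Rsl24d1 (0.90) and for Tead1 Naxd (0.86).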

How the data were processed

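Plantaris cells were sorted and run on the 10x 3' kit. Per the labels and the submitters' processing notes, reads were aligned and counted with Cell Ranger 6.0.0 on mm10, and the authors deposited the matrices as UMI counts, not normalized; Seurat 4.0.2 and R 4.0.2 served their own analysis. The labels describe a sort on VCAM, CD31, CD45 and Sca1, the design text a sort on GFP. No columns were left unused.

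Here counts were read with Python 3.11.15 (numpy 2.4.6, scipy 1.17.1, pandas 2.3.3, matplotlib 3.10.9). Cells with under 1000 UMIs or over 10% mitochondrial UMIs were left out, which left 675 sham and 2854 MOV cells. Groups were read from marker UMIs with thresholds set after seeing their distributions. Cells passing thresholds of unrelated groups (18 sham, 144 MOV) were left out as possible doublets and no doublet caller was run; 41 and 397 cells passed none. UMIs were summed per group, scaled to CPM and given exact 95% intervals. With 1 library per condition no test was run. Genes with at least 20 UMIs over both groups enter a comparison; 3 counts set the limit for 0. Called genes are those past 2-fold. TMM factors (edgeR 4.0.16, R 4.3.3) and median-of-ratios factors were alternatives, and so were other filters, thresholds and depths. Ratios were tested on simulated data. The genes and lists were chosen with earlier results of these data known. All 10 genes were named in every group; from each list the largest rise and fall past 2-fold, and the 3 genes most alike. Comparisons of fibre droplets, tenocytes and cells with quiescence markers between libraries were added after the data were seen. Sequences are from RefSeq on GRCm38.p6 and coordinates from GENCODE on GRCm38.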

Additional observations from a re-analysis of the deposited data

Results flagged for a closer look

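For 4 of the genes the MOV to sham difference ran in opposite directions in different cell groups. The same rule was not applied to all genes, so this count has no background beside it. None of these differences between groups was tested, since each group is 1 sum of cells per library. Values are differences of log2 ratios, the first group minus the second. For Ccn2, MuSCs minus Pdgfra cells gave -3.48 and Pdgfra cells minus tenocytes 2.25: Ccn2 was lower in MOV in MuSCs and tenocytes and higher in Pdgfra cells. For Ccn1, MuSCs minus fibre droplets gave -3.20, Pdgfra cells minus fibre droplets -4.82 and fibre droplets minus tenocytes 6.06, each resting on 7 Ccn1 UMIs in MOV fibre droplets. For Ankrd1, MuSCs minus tenocytes gave 2.56 and fibre droplets minus tenocytes 6.53. For Wwtr1, MuSCs minus fibre droplets gave -2.23, on 7 MOV fibre UMIs.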

How the results depend on the processing

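No paired analysis was possible because each condition is 1 library. Of the recomputed counts 148 stayed within 1.5 times the count reported and 18 did not. Of the single ratios 439 stayed inside their own counting interval, 43 left it, and no ratio past 2-fold changed sign. In MuSCs 2 genes instead of 1 were past 2-fold, Yap1 joining Ccn2, with thresholds doubled (Yap1 -1.01), shared barcodes left out (-1.14), TMM (-1.06) and median-of-ratios factors (-1.08). Cycling cells gave 2 with thresholds halved (Vgll4 -1.09). Tenocytes against Pdgfra cells gave 2 with a 5% mitochondrial limit, no Pdgfra UMI needed, shared barcodes left out, TMM or median-of-ratios factors (Vgll2 joining), 2 with mixed cells kept or Chodl left out of the MuSC list (Vgll3 joining), and 3 with thresholds doubled (both). Fibre droplets between libraries gave 5 without the gene filter and 1 (Ankrd1) at 50 UMIs. With a 5% mitochondrial limit tenocytes between libraries gave 5 instead of 3 and MuSCs with quiescence markers 5 instead of 3. Shares of MuSCs stood apart for 1 gene at 1000 UMIs instead of 4. Causes were not tested. The alternatives on shared barcodes, Chodl, the Pdgfra UMI and the added comparisons were chosen after seeing the data.

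Sham groups were small (22 Pdgfra cells, 15 tenocytes, 118 MuSCs) and shallower, and MOV fibre droplets numbered 20, so ratios on few UMIs, such as Vgll4 in Pdgfra cells and Wwtr1 and Ccn1 in fibre droplets, have intervals over 2 log2 units wide. Intervals leave out variation between cells and between animals.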
